A study of Mus musculus with 10 samples.

Results

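The proliferation genes examined here are 39 genes of DNA replication and cell division, taken by symbol from a table of 55359 mouse genes and divided into 17 genes of S phase and 22 genes of mitosis. Each symbol matched 1 gene. Their mRNA was measured by RNA-sequencing in C2C12 cells, a mouse myoblast line that leaves the cell cycle and fuses into myotubes when serum is lowered. Cells were transfected with 100 nM of an siRNA against *Fndc1* (si-*Fndc1*, 5 libraries) or of a control siRNA (si-Control, 5 libraries). Both groups are C2C12 cells, and the sample labels place both after 4 days in medium with 2% horse serum, while the series text gives 48 h from transfection to harvest. No growing myoblasts were sequenced, and the labels do not say whether the libraries of a group come from separate cultures, so the p-values measure the spread between libraries. The groups addressed whether the replication and division programme stood at another level when *Fndc1*, which encodes a secreted protein with fibronectin type III domains, was knocked down during differentiation.

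A cell that divides first switches on cyclin E and the E2F transcription factors, which commit it to S phase. Replication origins are then licensed by loading of the MCM helicase ring, deoxynucleotides are made, and the forks run with the PCNA clamp. For mitosis, cyclin A and cyclin B activate CDK1, the spindle checkpoint holds back the anaphase-promoting complex until every chromosome is attached, and kinesins separate the chromosomes and the daughter cells. Myoblasts shut this programme down for good as they become myotubes, through CDK inhibitors and retinoblastoma family proteins, while unfused reserve cells can return to the cycle. In a bulk sample, fewer cycling cells and less of these mRNAs per cell cannot be told apart.

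Transcription of these genes is known to be governed from short promoter boxes. E2F sites mark genes of S phase, and the CHR element together with CCAAT boxes, the sites of NF-Y, marks genes of G2 and mitosis. Promoter windows of 300 bases, running from 250 bases before to 50 bases after the annotated start, were taken from RefSeq on GRCm38.p6 and matched 32 of the 39 genes by symbol. *Ccne2*, *Mcm4*, *Gins2*, *Ccna2*, *Aurkb*, *Kif20a* and *Tpx2* were not matched. Each of the 4 windows shown belongs to a gene that passed the test described with the levels, and they are shown because *Rrm1* and *Rrm2* encode the subunits of a single enzyme and *Cdk1* and *Cdc20* are mitosis genes that moved in opposite directions. Capitals mark every match, on either strand, to the CHR (TTTGAA), to the CCAAT box (CCAAT, printed as ATTGG where it lies on the other strand) or to an E2F site (TTTCCCGC, TTTGGCGC, TTTCGCGC or TTTGCCGC). No match shown overlaps another. The windows lie at chr7:102441445-102441744 on the plus strand (*Rrm1*), chr12:24708004-24708303 on the plus strand (*Rrm2*), chr10:69352863-69353162 on the minus strand (*Cdk1*) and chr4:118437294-118437593 on the minus strand (*Cdc20*), and each is written 5′ to 3′ in the direction of the gene.
Rrm1: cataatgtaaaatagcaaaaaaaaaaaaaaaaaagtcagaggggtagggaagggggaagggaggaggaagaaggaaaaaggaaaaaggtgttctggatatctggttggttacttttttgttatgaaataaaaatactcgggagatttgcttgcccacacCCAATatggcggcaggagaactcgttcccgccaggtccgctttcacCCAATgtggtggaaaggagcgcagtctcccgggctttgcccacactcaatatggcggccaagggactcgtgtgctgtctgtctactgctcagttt
Rrm2: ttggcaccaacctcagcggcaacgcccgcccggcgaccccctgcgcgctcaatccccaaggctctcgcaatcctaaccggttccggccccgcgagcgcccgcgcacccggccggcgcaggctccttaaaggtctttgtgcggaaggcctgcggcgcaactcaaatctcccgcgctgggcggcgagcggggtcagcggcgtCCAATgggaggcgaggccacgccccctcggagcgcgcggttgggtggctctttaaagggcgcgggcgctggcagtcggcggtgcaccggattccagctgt
Cdk1: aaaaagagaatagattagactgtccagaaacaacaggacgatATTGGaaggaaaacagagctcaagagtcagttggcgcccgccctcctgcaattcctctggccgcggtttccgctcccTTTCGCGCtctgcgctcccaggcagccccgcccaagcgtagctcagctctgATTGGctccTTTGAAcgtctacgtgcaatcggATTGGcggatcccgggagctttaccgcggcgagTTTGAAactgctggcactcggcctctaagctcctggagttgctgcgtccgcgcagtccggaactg
Cdc20: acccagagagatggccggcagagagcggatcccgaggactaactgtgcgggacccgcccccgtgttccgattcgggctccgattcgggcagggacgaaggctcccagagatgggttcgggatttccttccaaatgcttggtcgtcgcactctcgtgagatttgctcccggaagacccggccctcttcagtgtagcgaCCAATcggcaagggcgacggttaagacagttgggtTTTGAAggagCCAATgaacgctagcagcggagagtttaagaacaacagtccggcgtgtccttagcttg

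The *Cdk1* window held 2 CHR elements, 3 CCAAT boxes and 1 E2F site, and its CHR nearest to the start began at -15. The *Cdc20* window held 1 CHR, at -18, between 2 CCAAT boxes, at -53 and -8. *Rrm1* had 2 CCAAT boxes, at -91 and -45, and *Rrm2* had 1, at -50, and neither window matched the E2F or CHR letters. The windows of *E2f1* and *Nusap1*, which also passed the test, matched none of the letters. The *E2f1* window covers a start inside the gene and begins in its coding sequence, so the region upstream of the gene was not searched. Each of these genes had 1 window, and sites outside it were not searched. Whether C2C12 cells use the start it covers was not tested.

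Across the list, the boxes differed between the phases. The CHR letters were found in 12 of the 18 windows of mitosis genes (66.7%), in 1 of the 15 windows of S phase genes (6.67%, that of *Mcm2*) and in 17.9% of all 32851 windows. The E2F letters were found in 6 of the 15 windows of S phase genes (40.0%) and in 1 of the 18 of mitosis genes (5.56%), against 2.26% of all windows. CCAAT was found in 83.3% of the mitosis and 66.7% of the S phase windows, against 37.4% of all. *Mcm7* has 2 windows in the table, so the 15 S phase windows belong to 14 genes. The window of *E2f1* that starts in coding sequence is among them. Among the 11743 windows of tested genes, 11.9% held the CHR letters and 3.93% the E2F letters. A match is a run of letters and not a shown binding site. A window without a match does not show that the gene lacks such a site.

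**Figure D1:**
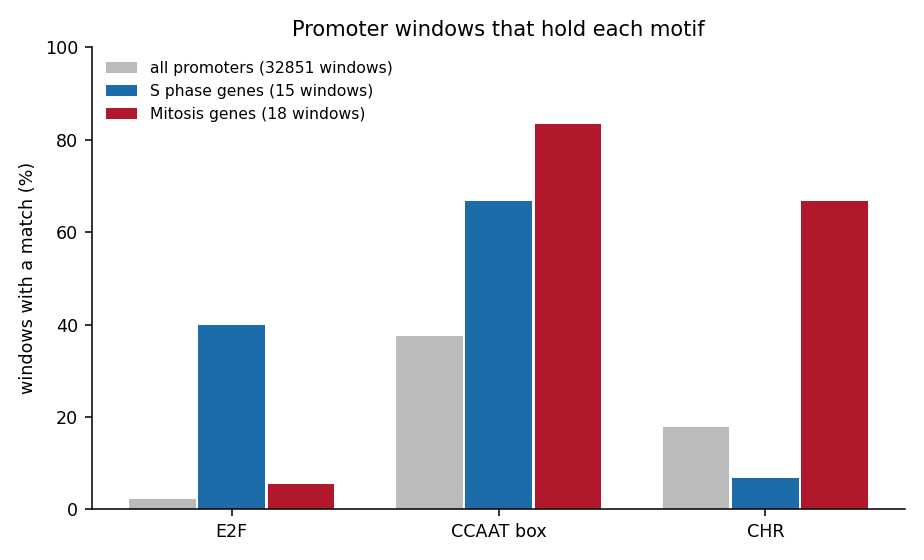
The bars give the share of 300-base promoter windows (y axis, %) with at least 1 match to each motif, for all 32851 windows (grey), 15 windows of S phase genes (blue) and 18 windows of mitosis genes (red). The CHR bar is highest for mitosis genes (66.7%) and the E2F bar for S phase genes (40.0%).

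The libraries held 56332844 to 75995168 counts. *Fndc1* itself read 26.7, 24.7, 28.7, 29.6 and 29.2 FPKM in si-Control and 20.4, 23.5, 20.8, 21.1 and 18.7 FPKM in si-*Fndc1*, without overlap (log2 fold change -0.40, SE 0.07, edgeR adjusted p = 0.000934). With an offset for the GC content and length of transcripts its log2 fold change was -0.21 (edgeR adjusted p = 0.0128). Muscle identity was plain in both groups. The sum over 16 myotube genes was 7045 to 7417 FPKM in si-Control and 7340 to 8085 FPKM in si-*Fndc1* (3 rose and 3 fell, 37.5% called). Over 8 myoblast genes it was 567 to 624 FPKM in si-Control and 566 to 610 FPKM in si-*Fndc1* (6 tested, 2 rose and 2 fell, 66.7% called). Of all tested genes 34.4% were called. Markers of hepatocytes moved with the groups. All 15 tested of 16 rose by edgeR's quasi-likelihood test, beside 17.3% of all tested genes called higher. Testing required a mean of at least 0.5 FPKM over all 10 libraries. The levels in si-*Fndc1* alone could supply that mean, so the filter favoured this count. The sum of the 16 was 0.193 to 7.02 FPKM in si-Control and 55.7 to 194 FPKM in si-*Fndc1*, where *Alb* read 12 to 60.8 FPKM. These markers took at most 0.0365% of a library. Sums over 8 leukocyte, 6 endothelial, 6 adipocyte and 6 erythroid markers reached at most 2.53 FPKM in any library. Their means in si-Control and si-*Fndc1* were 0.874 and 0.880 FPKM for leukocyte and 0.131 and 0.191 FPKM for endothelial markers. They were 0.0062 and 0.0297 FPKM for adipocyte and 1.32 and 2.23 FPKM for erythroid markers. The group ranges of each sum overlapped. In si-Control 5 leukocyte, 2 endothelial, 5 adipocyte and 2 erythroid markers had no count. In si-*Fndc1* the numbers were 4, 2, 4 and 1. *Ptprc*, *Cdh5* and *Adipoq* were among them in both groups.

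All 39 genes were detected in every library, and the lowest count was 99, for *Cdc6*. Levels are given as FPKM, the deposited count scaled to transcript length and library size. Averaged over the 10 libraries, they ran from 0.394 FPKM (*Cdc6*) to 37.8 FPKM (*Rrm2*) with a median of 2.66 FPKM, below the median of 5.20 FPKM of the 13548 genes with a mean of at least 0.5 FPKM. These 13548 genes were tested, and *Cdc6*, which loads the MCM ring, was the only one of the 39 under that limit. Among the tested genes the 16 S phase genes stood at a median percentile of 39.9 and the 22 mitosis genes at 28.9. *Mki67*, which encodes the proliferation antigen Ki-67, stood at percentile 43.9. A list of 16 genes of differentiated muscle stood at a median percentile of 98.4 in the same libraries.

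**Figure D2:**
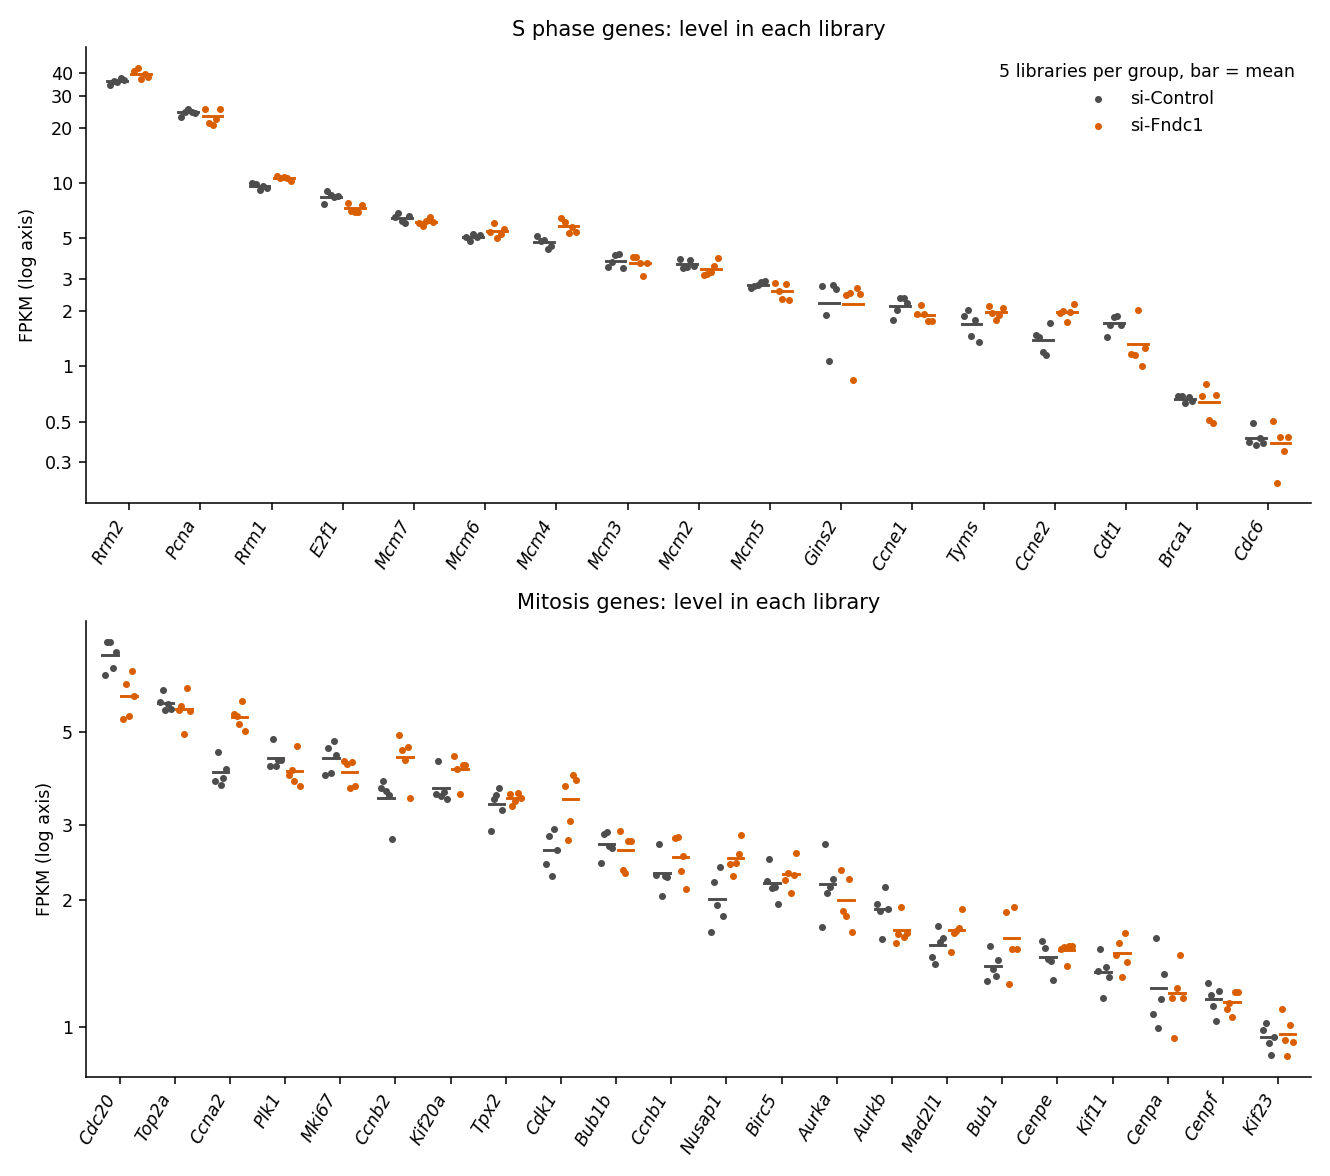
The level of each gene in each library (y axis, FPKM, log axis) is drawn for the 17 S phase genes (top) and the 22 mitosis genes (bottom), with si-Control in grey, si-*Fndc1* in orange and a bar at the mean of 5 libraries. *Rrm2* (37.8 FPKM on average) and *Pcna* stand above the other genes, and for most genes the points of the groups overlap.

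A minority of the proliferation genes differed between si-*Fndc1* and si-Control, and in both directions. By edgeR's quasi-likelihood test at an adjusted p under 0.05, 10 of the 38 tested genes changed (26.3%), whereas 34.4% of all tested genes did. *Ccne2*, *Mcm4*, *Rrm1* and *Rrm2* of S phase and *Ccna2*, *Ccnb2*, *Cdk1* and *Nusap1* of mitosis rose, 8 genes in all (21.1%), beside 17.3% of all tested genes called higher. *E2f1* and *Cdc20* fell (5.26%), beside 17.2% of all tested genes called lower. The other 28 genes did not pass. The log2 fold changes of the 38 were split evenly, 19 above and 19 below 0, and ran from -0.36 to 0.50. Their median was -0.04 for S phase and 0.06 for mitosis, beside 0.0043 for all tested genes. In FPKM, 4 of the 38 genes (*Ccne2*, *Mcm4*, *Rrm1* and *Ccna2*) had si-*Fndc1* and si-Control ranges that stood apart, all of them higher, beside 25.1% of all tested genes with ranges apart and 12.1% with the si-*Fndc1* range above. In an alternative chosen after seeing the data, without replicates 2, 3 and 4 of si-*Fndc1*, which had the highest hepatocyte marker sums, 22.1% of all tested genes were called (10.8% higher, 11.3% lower), and of the proliferation genes *Ccna2* and *Cdk1* were higher, *Cdc20* and *Cdt1* lower, and the other 7 called with all libraries did not pass. That fit leaves 2 si-*Fndc1* libraries, and the part of these markers in the fold changes was not tested beyond it.

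**Figure D3:**
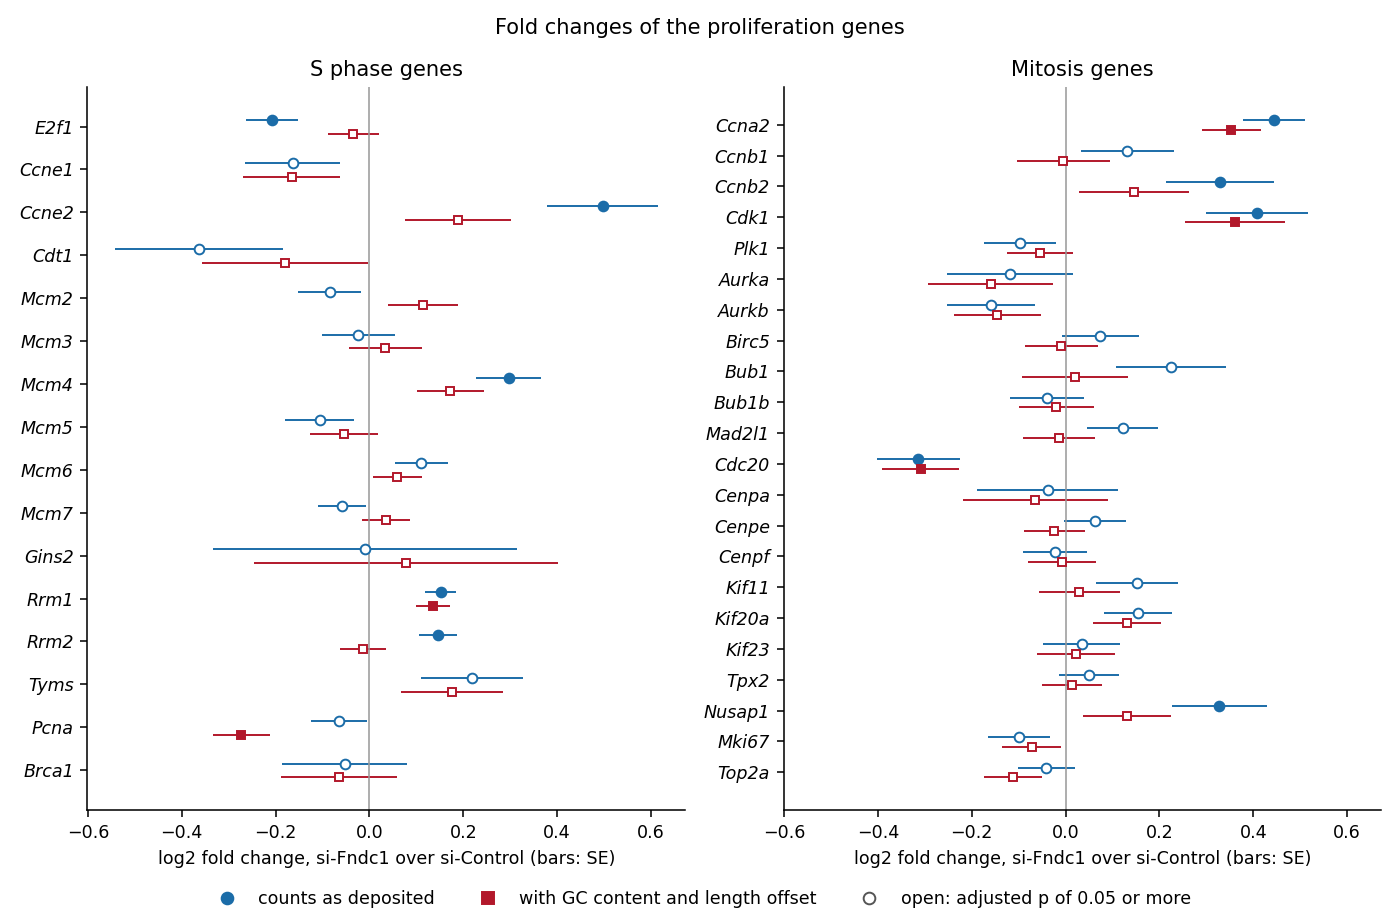
The x axis gives the log2 fold change, si-*Fndc1* over si-Control, with its SE, for the 16 tested S phase genes (left) and the 22 mitosis genes (right), blue circles from the counts as deposited and red squares with an offset for GC content and length. Filled symbols have an adjusted p under 0.05. In blue 8 genes are called above 0 and 2 below, and in red 3 above and 2 below.

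The regulators of entry into S phase moved apart. *Ccne2*, one of the E-type cyclins that activate CDK2 (listed at chr4:11191351-11204682), read 1.49, 1.45, 1.20, 1.15 and 1.72 FPKM in si-Control and 1.95, 2.00, 1.75, 1.99 and 2.19 FPKM in si-*Fndc1*. Every si-*Fndc1* library was above every si-Control library. The mean was 1.40 ± 0.231 FPKM in si-Control and 1.97 ± 0.158 FPKM in si-*Fndc1* (SD, n = 5 each, two-sided exact permutation p = 0.00794, the smallest this design allows), a log2 fold change of 0.50 (SE 0.12, edgeR adjusted p = 0.00759), the largest rise among the 38 from the counts as deposited. With the offset for GC content and length its value was 0.19 (edgeR adjusted p = 0.268), below those of *Cdk1* (0.36) and *Ccna2* (0.35). *Ccne2* shares 5525 bases with *Ints8* on the other strand (log2 fold change 0.03, edgeR adjusted p = 0.593). The sources do not say if reads were counted by strand, and 8 of the 39 genes share bases with a tested gene on the other strand. *Ccne1*, the other E-type cyclin gene, read 1.78 to 2.37 FPKM in si-Control and 1.76 to 2.16 FPKM in si-*Fndc1*, with a log2 fold change of -0.16 (SE 0.10) that did not pass.

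*E2f1*, the activator of many S phase genes, read 7.68, 9.0, 8.66, 8.36 and 8.51 FPKM in si-Control and 7.78, 7.07, 6.92, 6.95 and 7.64 FPKM in si-*Fndc1*. Replicate 1 of si-Control lay within the si-*Fndc1* range, and 4 of the 5 si-*Fndc1* libraries were below all of si-Control. *E2f1* fell by 0.21 on the log2 scale (SE 0.06, edgeR adjusted p = 0.0137, exact permutation p = 0.0159 for FPKM). With the offset for GC content and length the value was -0.03 (edgeR adjusted p = 0.696).

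Of the 9 genes of origin licensing and the replicative helicase 8 were tested. From the counts as deposited *Mcm4* alone passed (12.5%), beside 34.4% of all tested genes. It read 5.13, 4.84, 4.90, 4.36 and 4.55 FPKM in si-Control and 6.43, 6.16, 5.33, 5.76 and 5.39 FPKM in si-*Fndc1*, without overlap (log2 fold change 0.30, SE 0.07, edgeR adjusted p = 0.00683). The MCM ring holds its 6 subunits, MCM2 to MCM7, in equal number, and the mRNAs of the other 5 did not pass. Their log2 fold changes were -0.08 (*Mcm2*), -0.02 (*Mcm3*), -0.11 (*Mcm5*), 0.11 (*Mcm6*) and -0.06 (*Mcm7*), with SE of 0.05 to 0.08. With the offset for GC content and length *Mcm4* did not pass (log2 fold change 0.17, edgeR adjusted p = 0.112), and *Mcm2*, *Mcm3* and *Mcm7* had values above 0 (0.11, 0.03 and 0.04). In level the 6 subunits ran from 2.58 FPKM (*Mcm5*) to 6.17 FPKM (*Mcm7*) on average in si-*Fndc1*. *Cdc6* stood at 0.407 ± 0.0495 FPKM in si-Control and 0.382 ± 0.101 FPKM in si-*Fndc1* (SD, n = 5 each, exact permutation p = 0.667).

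*Cdt1*, the licensing factor that is destroyed once S phase begins, rested on 1 library. It read 1.45, 1.68, 1.86, 1.89 and 1.69 FPKM in si-Control and 1.17, 1.15, 2.02, 1.0 and 1.26 FPKM in si-*Fndc1*. Replicate 3 of si-*Fndc1* was the highest of all 10 libraries and the other 4 were below all of si-Control. The log2 fold change was -0.36 (SE 0.18, edgeR adjusted p = 0.141) with that library and -0.57 (edgeR adjusted p = 0.0036) without it. *Gins2*, a subunit of the GINS complex that joins the MCM ring to CDC45, was the most variable gene, at 1.07 FPKM in replicate 3 of si-Control and 1.9 to 2.79 in the other 4, and at 0.847 FPKM in replicate 3 of si-*Fndc1* and 2.47 to 2.68 in the other 4. The group means were 2.22 and 2.20 FPKM. *Gins2* shares 2758 bases with *Gse1* on the other strand, which fell (log2 fold change -0.58, edgeR adjusted p = 0.00552).

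The 3 genes of deoxynucleotide supply had log2 fold changes above 0 from the counts as deposited (*Rrm2* had -0.01 with the offset). Both subunits of ribonucleotide reductase, which makes deoxynucleotides from ribonucleotides, were called higher (2 of 3), beside 17.3% of all tested genes. With the offset 1 of the 3 was, beside 12.2% of all genes in that fit. *Rrm1*, the large subunit (listed at chr7:102090902-102118978), read 10.0, 9.88, 9.21, 9.59 and 9.45 FPKM in si-Control and 10.9, 10.7, 10.8, 10.6 and 10.2 FPKM in si-*Fndc1*, without overlap. The rise was small, 0.15 on the log2 scale (SE 0.03, edgeR adjusted p = 0.0049). *Rrm2*, the small subunit and the most abundant of the 39 genes, read 34.4, 36.1, 35.5, 37.2 and 36.6 FPKM in si-Control and 41.0, 42.4, 37.2, 39.5 and 37.7 FPKM in si-*Fndc1*. Only replicate 3 of si-*Fndc1* lay within the si-Control range. *Rrm2* also rose by a log2 fold change of 0.15 (SE 0.04, edgeR adjusted p = 0.0183), and did not pass with the offset. *Tyms*, which encodes thymidylate synthase, had a log2 fold change of 0.22 (SE 0.11) and did not pass.

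At the fork, neither gene passed from the counts as deposited, beside 34.4% of all tested genes. *Pcna*, the sliding clamp of the polymerases, read 22.9, 24.5, 25.3, 24.4 and 24.2 FPKM in si-Control and 25.5, 21.3, 20.7, 22.4 and 25.5 FPKM in si-*Fndc1*, so that replicates 1 and 5 of si-*Fndc1* were above all of si-Control and the other 3 below. Its log2 fold change was -0.07 (SE 0.06, edgeR adjusted p = 0.432), and with the offset for GC content and length it was called lower (-0.27, edgeR adjusted p = 0.00918). *Brca1*, a gene of homologous recombination at stalled forks, was among the weakest at 0.667 ± 0.0273 FPKM in si-Control and 0.640 ± 0.134 FPKM in si-*Fndc1* (SD, n = 5 each, exact permutation p = 0.683).

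Among the 8 genes of cyclins and mitotic kinases, 3 rose and 0 fell, beside 17.3% and 17.2% of all tested genes, and 2 of the 3 (*Ccna2* and *Cdk1*) were also called with the offset for GC content and length. *Ccna2*, the cyclin A that serves S phase and entry into mitosis (listed at chr3:36619014-36626299), read 3.83, 4.47, 3.74, 3.88 and 4.08 FPKM in si-Control and 5.51, 5.45, 5.20, 5.91 and 5.02 FPKM in si-*Fndc1*. The ranges were apart, and the mean was 1.35 times as high (log2 fold change 0.44, SE 0.07, edgeR adjusted p = 0.000498), the smallest p of the 38 genes. *Ccna2* shares 863 bases with *Exosc9* on the other strand (log2 fold change 0.09, edgeR adjusted p = 0.507). *Cdk1*, the kinase that cyclin A and cyclin B drive (listed at chr10:69170976-69188768), read 2.44, 2.82, 2.28, 2.94 and 2.63 FPKM in si-Control and 3.71, 2.77, 3.07, 3.94 and 3.84 FPKM in si-*Fndc1*. Replicate 2 of si-*Fndc1* lay within the si-Control range and the other 4 above it. *Cdk1* had a log2 fold change of 0.41 (SE 0.11, edgeR adjusted p = 0.0137).

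*Ccnb2*, a B-type cyclin, read 3.68, 3.82, 3.62, 3.54 and 2.78 FPKM in si-Control and 4.91, 4.51, 4.29, 4.58 and 3.48 FPKM in si-*Fndc1*, and replicate 5 was the lowest library of each group. Its log2 fold change of 0.33 (SE 0.11, edgeR adjusted p = 0.0463) was near the limit. Leaving out replicate 2 of si-Control or replicate 5 of si-*Fndc1* kept the call, and leaving out any 1 of the other 8 libraries lost it (edgeR adjusted p up to 0.102), as did the offset (0.15, edgeR adjusted p = 0.41). *Ccnb1*, the other B-type cyclin, read 2.04 to 2.71 FPKM in si-Control and 2.12 to 2.81 FPKM in si-*Fndc1* and did not pass (log2 fold change 0.13, SE 0.10). The Polo and Aurora kinases and survivin also did not pass, with log2 fold changes of -0.10 (*Plk1*), -0.12 (*Aurka*), -0.16 (*Aurkb*) and 0.07 (*Birc5*) and SE of 0.08 to 0.13. The kinase *Cdk1* and the cyclins that drive it had values above 0 from the counts as deposited. With the offset *Ccnb1* alone of them was below 0 (-0.0049). *Plk1*, *Aurka* and *Aurkb* had values below 0 in both fits. None of *Ccnb1*, *Plk1*, *Aurka* and *Aurkb* passed in either fit.

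In the spindle checkpoint group the target of the checkpoint fell and the checkpoint genes did not pass. *Cdc20*, the activator of the anaphase-promoting complex (listed at chr4:118290098-118294549), read 6.80, 8.15, 8.15, 7.06 and 7.72 FPKM in si-Control and 5.35, 6.48, 5.45, 6.96 and 6.06 FPKM in si-*Fndc1*. Only replicate 4 of si-*Fndc1* reached into the si-Control range. *Cdc20* fell by 0.31 on the log2 scale (SE 0.09, edgeR adjusted p = 0.0185), and its mean was 0.80 times that of si-Control. *Bub1*, *Bub1b* and *Mad2l1*, which hold CDC20 back, had log2 fold changes of 0.22, -0.04 and 0.12. *Bub1* passed only without replicate 2 of si-*Fndc1* (log2 fold change 0.30, edgeR adjusted p = 0.0439).

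None of the 3 centromere and kinetochore genes passed, beside 34.4% of all tested genes. *Cenpa*, the histone H3 variant of centromeres, *Cenpe*, a kinetochore motor, and *Cenpf* had log2 fold changes of -0.04, 0.06 and -0.02, and levels of 1.14 to 1.52 FPKM on average in either group. Of the 5 spindle and cytokinesis genes *Nusap1* alone passed (20.0%), beside the same 34.4%. *Nusap1*, which binds spindle microtubules, read 1.68, 2.20, 1.95, 2.39 and 1.83 FPKM in si-Control and 2.43, 2.28, 2.45, 2.57 and 2.84 FPKM in si-*Fndc1*, and replicate 2 of si-*Fndc1* lay within the si-Control range. Its log2 fold change was 0.33 (SE 0.10, edgeR adjusted p = 0.027). It did not pass without replicate 1, 3 or 5 of si-Control or without replicate 4 or 5 of si-*Fndc1* (edgeR adjusted p up to 0.0645), or with the offset (0.13, edgeR adjusted p = 0.358). The kinesins *Kif11*, *Kif20a* and *Kif23* and the spindle assembly factor *Tpx2* had log2 fold changes of 0.15, 0.15, 0.03 and 0.05. *Kif20a* passed only without replicate 2 of si-Control (log2 fold change 0.21, edgeR adjusted p = 0.0258).

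The common markers of dividing cells did not pass. *Mki67* read 3.95, 4.57, 3.99, 4.75 and 4.39 FPKM in si-Control and 4.26, 4.19, 3.69, 4.24 and 3.72 FPKM in si-*Fndc1*, with overlapping ranges and a log2 fold change of -0.10 (SE 0.07, edgeR adjusted p = 0.277). *Top2a*, the topoisomerase that untangles chromosomes, read 5.87, 6.26, 5.63, 5.81 and 5.64 FPKM in si-Control and 5.61, 5.75, 4.94, 6.35 and 5.58 FPKM in si-*Fndc1* (log2 fold change -0.04, SE 0.06, edgeR adjusted p = 0.644). Both markers thus had values slightly below 0 in the libraries in which *Ccna2* and *Cdk1* were higher.

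Summed over each list, the groups overlapped. The 17 S phase genes summed to 112, 116, 114, 117 and 116 FPKM in si-Control and to 124, 120, 111, 117 and 119 FPKM in si-*Fndc1*, a ratio of the means of 1.03. The largest terms of that sum were *Rrm2*, on average 35.9 FPKM in si-Control and 39.6 FPKM in si-*Fndc1*, and *Pcna*, at 24.3 and 23.1 FPKM. The 22 mitosis genes summed to 58.5, 67.3, 60.1, 62.1 and 60.3 FPKM in si-Control and to 65.3, 63.0, 59.4, 68.9 and 62.4 FPKM in si-*Fndc1*, also a ratio of 1.03. The reads on the 39 genes were few, 0.0494% to 0.0546% of a library for S phase and 0.0328% to 0.0383% for mitosis. Some libraries were high or low in their group for many genes at once. Replicate 2 of si-Control was the highest of its group for 13 of the 22, and replicate 4 of si-*Fndc1* for 10. Replicate 3 of si-*Fndc1* was the lowest of its group for 9 of the 22 mitosis genes and for 8 of the 17 S phase genes. The coefficient of variation within a group had a median of 5.77% (si-Control) and 8.48% (si-*Fndc1*) for the S phase genes, and of 8.52% and 8.83% for the mitosis genes.

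**Figure D4:**
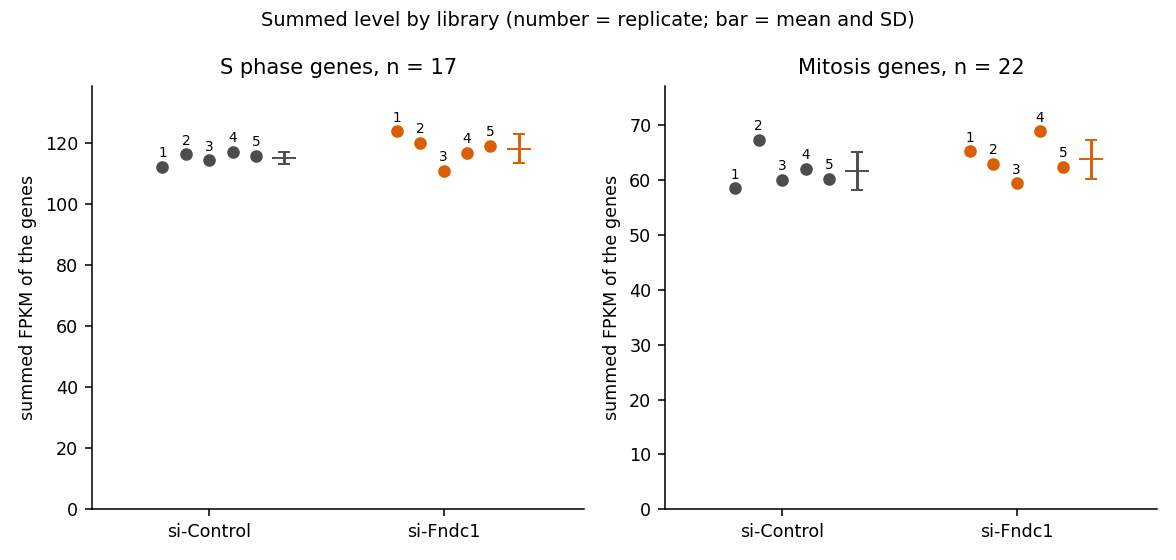
Each point is the summed FPKM of the 17 S phase genes (left) or of the 22 mitosis genes (right) in 1 library, numbered by replicate, with the mean and SD of 5 libraries beside it (y axis from 0). The groups overlap in both panels, and replicate 3 is the lowest si-*Fndc1* library in both.

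The direction in which a proliferation gene moved went with the base composition of its transcript. All 8 genes that rose have a GC content under 50%, from 36.3% (*Ccne2*) to 49.1% (*Ccnb2*), and both that fell lie above it, *Cdc20* at 55.6% and *E2f1* at 58.3%. Over the 38 genes the log2 fold change fell with GC content (Spearman's rho = -0.66, across genes that share the same libraries), as it did over the 11185 tested genes with a known GC content (rho = -0.52). Among genes under 50% GC, 8 of 25 proliferation genes were called higher, beside 29.0% of all such genes, and 0 lower, beside 6.03%. Among genes at 50% or more, 0 of 13 were called higher, beside 7.5%, and 2 lower, beside 31.3%.

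With the trends of each library with GC content and length taken out as an offset, 5 of the 38 genes were called, beside 22.5% of the 11185 genes (12.2% higher, 10.3% lower), of which 37.9% were called without the offset. *Ccna2* (log2 fold change 0.35, edgeR adjusted p = 0.00275), *Cdk1* (0.36, edgeR adjusted p = 0.0336) and *Rrm1* (0.14, edgeR adjusted p = 0.0221) stayed higher and *Cdc20* (-0.31, edgeR adjusted p = 0.0214) stayed lower. *Ccne2*, *Mcm4*, *Rrm2*, *Ccnb2*, *Nusap1* and *E2f1* did not pass, with values of 0.19, 0.17, -0.01, 0.15, 0.13 and -0.03. *Pcna*, not called from the counts as deposited, was called lower (-0.27, SE 0.06), although its FPKM ranges overlapped. The medians over the lists were then 0.03 for S phase and -0.0082 for mitosis, beside 0.0060 for all genes in the fit. Spearman's rho of the fold change with GC content was then -0.0064 over the 11185 genes and -0.28 over the 38. A weaker trend thus remained among the 38. The part of GC content in the fold changes of single genes was not tested beyond this offset.

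**Figure D5:**
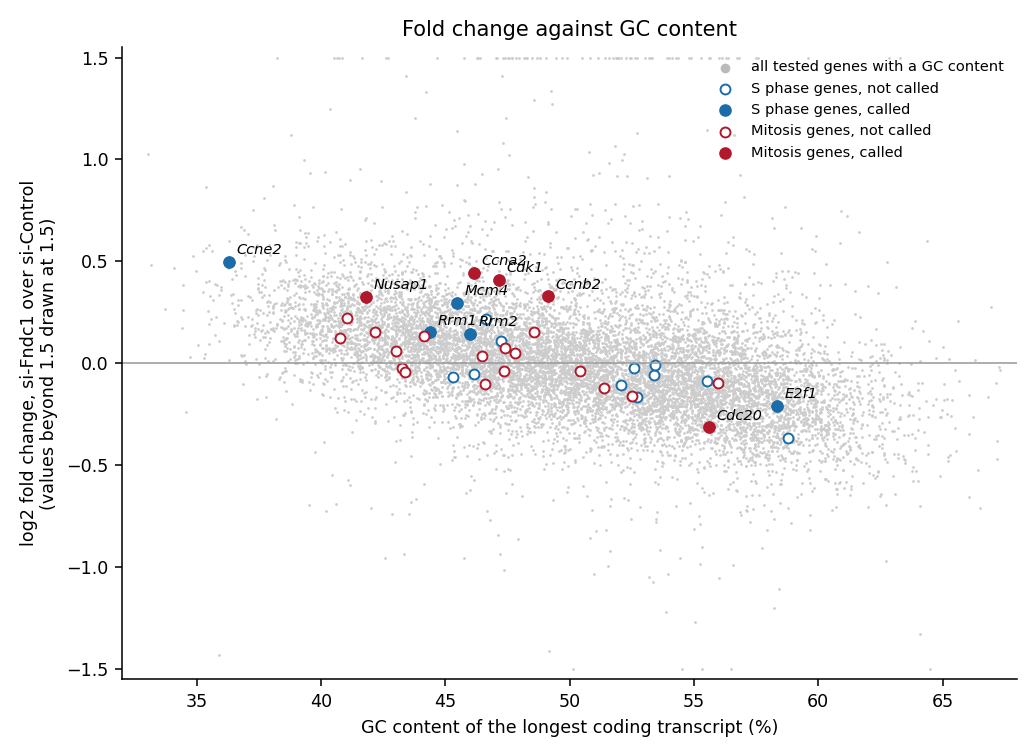
The log2 fold change, si-*Fndc1* over si-Control (y axis), is drawn against the GC content of the longest coding transcript (x axis, %) for all tested genes with one (grey) and for the S phase (blue) and mitosis (red) genes, filled where the adjusted p was under 0.05, with values beyond 1.5 drawn at 1.5. The called genes above 0 lie between 36.3% and 49.1% GC and those below 0 at 55.6% and 58.3%, within the downward trend of the grey points.

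Wider lists of both programmes also held genes called in either direction. Of 52 other S phase genes 46 were tested, and 9 rose (19.6%) and 7 fell (15.2%), beside 17.3% and 17.2% of all tested genes, with a median log2 fold change of 0.02. The smallest p-values belonged to genes that fell, *Pold1*, the catalytic subunit of polymerase delta (-0.47, SE 0.10), *Chaf1a*, a subunit of the histone chaperone CAF-1 (-0.29, SE 0.06), and *Timeless*, a fork protection gene (-0.28, SE 0.07), at 60.7%, 56.7% and 55.1% GC. Of 66 other mitosis genes 62 were tested, and 8 rose (12.9%) and 3 fell (4.84%), beside the same 17.3% and 17.2%, with a median of 0.08. Here the smallest p-values belonged to genes that rose, *Cks2*, a small subunit that binds CDK1 (0.49, SE 0.11), *Cenpi*, a centromere protein (0.60, SE 0.14), and *Spc25*, a subunit of the NDC80 complex of kinetochores (0.38, SE 0.09), at 44.9%, 42.9% and 45.4% GC. With the offset, 4 of the 46 were higher and 1 lower, and 1 of the 62 was higher and 3 lower, beside 12.2% higher and 10.3% lower of all genes in that fit. Of the 6 genes just named, *Cenpi* alone then passed (0.46, edgeR adjusted p = 0.0317).

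Genes of the exit from the cycle and its control in G1 were called at a share near that of all tested genes. Of 18 such genes 16 were tested, and 2 rose and 4 fell (37.5% in all, beside 34.4%). *Cdkn1a*, which encodes the CDK inhibitor p21, was the most abundant of them at 354 ± 14.3 FPKM in si-Control and 315 ± 13.4 FPKM in si-*Fndc1* (SD, n = 5 each, exact permutation p = 0.00794), and its log2 fold change was -0.16 (SE 0.04). *E2f4*, a repressive E2F, fell by 0.40 on the log2 scale (SE 0.06), *Cdk6* by 0.26 (SE 0.05) and *Ccnd3*, the cyclin D of differentiating myoblasts, by 0.59 (SE 0.17). *Ccnd3* read 17.0, 18.7, 19.6, 33.5 and 28.9 FPKM in si-Control, where replicates 4 and 5 stood above the others, and 14.5 to 16.9 FPKM in si-*Fndc1*. It did not pass without replicate 5 of si-Control (-0.51, edgeR adjusted p = 0.0501). *Rb1*, the retinoblastoma gene, rose by 0.25 (SE 0.06) and *Cdkn1b*, which encodes p27, by 0.27 (SE 0.06). Of these 6 genes *E2f4* alone passed with the offset (-0.33, edgeR adjusted p = 0.00285), and *Cdkn2c* and *Cdk4* were called higher there only. *Cdkn2a* and *Cdkn2b*, which encode CDK inhibitors, had no count in any library.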

How the data were processed

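Gene counts and FPKM of 10 libraries, 5 per siRNA, were analysed as deposited. The deposited counts are whole reads per gene, which the authors did not normalize. Beside them they deposited FPKM, which equals the count over a fixed length per gene and the library size, with 0.0001 where no read was counted. The paper names TopHat, mm10 and htseq-count, the series description STAR and mm9, and the submitters' processing notes GRCm39, cutadapt 1.9 and FastQC. The paper speaks of 4 libraries, and all 10 were used. Gene coordinates are as listed in the table, which names no build, and promoter coordinates are GRCm38.p6. The members and lists were chosen with earlier results of these data known.

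Counts were tested with edgeR 4.0.16 (quasi-likelihood, TMM, R 4.3.3) for genes with a mean of at least 0.5 FPKM, with Benjamini-Hochberg adjustment over 13548 genes. SE is the log2 fold change over the root of F. FPKM of single genes were compared by two-sided exact permutation tests (Python 3.11.15, scipy 1.17.1). GC content came from the longest coding transcript of NCBIM37. It was known, with a length, for 11185 tested genes, and the offset came from Huber regression on natural splines (df of 5). DESeq2 1.42.0, limma 3.58.1 and each library left out were alternatives. Scripts were tested on simulated data. There edgeR recovered 51.0% of genes changed by 0.5 on the log2 scale and 80.4% of those changed by 1. A gene that did not pass may thus still have changed. With a GC bias added to the si-*Fndc1* libraries, 2984 unchanged genes were called without the offset and 4 with it. Named are all 39 members, the 3 smallest p-values of each wider list and every called exit gene. Genes named for an overlap, and single markers, were chosen after their values were seen. Promoters could be shown for the 3 smallest p-values of each phase among genes with a window, and 4 of those 6 are printed. Totals of 56332844 to 75995168 counts put the limit on precision at the spread between libraries. Counts of libraries of a group differed by more than sampling noise in every pair (chi-square over its degrees of freedom, lowest 41.3). Same-numbered libraries did not deviate together.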

Additional observations from a re-analysis of the deposited data

Results flagged for a closer look

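Among 78 groups of 5 FPKM values, those of 39 genes in each condition, 8 held a library that stood apart from the other 4 by Dixon's limit, and chance puts about 1 in 20 groups past it. Replicate 3 of si-*Fndc1* accounted for 4 of the 8. It read 2.02 FPKM for *Cdt1* (others 1.0 to 1.26), 0.847 FPKM for *Gins2* (others 2.47 to 2.68), 1.92 FPKM for *Aurkb* (others 1.58 to 1.67) and 1.39 FPKM for *Cenpe* (others 1.53 to 1.56), so that it was high for *Cdt1* and *Aurkb* and low for *Gins2* and *Cenpe*. Replicate 2 of si-Control accounted for 3, all high, at 0.493 FPKM for *Cdc6* (others 0.371 to 0.406), 4.80 FPKM for *Plk1* (others 4.14 to 4.29) and 4.25 FPKM for *Kif20a* (others 3.46 to 3.59). Replicate 5 of si-Control was low for *Ccnb2*, at 2.78 FPKM (others 3.54 to 3.82).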

How the results depend on the processing

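Direction and call of *Ccna2* and *Cdc20* were kept in every alternative that tested them. The counts of proliferation genes called higher were 4 for S phase and 4 for mitosis with RLE, upper-quartile, DESeq2 and limma on log2(FPKM + 1) or log2(FPKM + 0.1), and 3 and 4 after quantile normalization. Without a filter 2 mitosis genes were called higher. With a mean of at least 5 FPKM, 7 S phase and 2 mitosis genes were tested, 0 mitosis genes were called higher, and the medians were 0.11 and -0.18. With the GC content and length offset 1 S phase and 2 mitosis genes were called higher and the S phase median was 0.0348. In that fit 2517 genes were called in all (22.5%, with 12.2% higher). Leaving out each library gave 2 to 5 mitosis genes higher (2 without replicate 1, 3 or 5 of si-Control or 4 of si-*Fndc1*) and 1 to 2 S phase genes lower (2 without replicate 3 of si-*Fndc1*, when *Cdt1* passed). Except for the offset, the share of all genes called in these fits is not given here. Their counts therefore cannot be read against all genes.

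A fit with the replicate number as a block called 0 S phase genes lower (*E2f1*, *Rrm2* and *Nusap1* did not pass), and with block and offset 0 S phase and 1 mitosis gene higher, an S phase median of 0.0343 and 1648 genes. Same-numbered libraries did not pair (correlations of their deviations from -0.055 to 0.064), and not every library correlated best with its own number. Chosen after seeing the data, leaving out the 3 si-*Fndc1* libraries of highest hepatocyte sum called 0 S phase and 2 mitosis genes higher, with an S phase median of 0.0586. It called 2994 genes in all (22.1%, with 10.8% higher).

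Signs of log2 fold changes reversed as follows, and among these genes *Rrm2* was the only one called as deposited. With the offset, and with offset and block, they were -0.00873 and -0.00802 for *Birc5*, -0.0049 and -0.0096 for *Ccnb1*, -0.0237 and -0.0205 for *Cenpe*, 0.0783 and 0.0567 for *Gins2*, -0.0140 and -0.0134 for *Mad2l1*, 0.11 and 0.11 for *Mcm2*, 0.0340 and 0.0326 for *Mcm3*, 0.0357 and 0.0360 for *Mcm7*, and -0.0133 and -0.0157 for *Rrm2*. Quantile normalization gave -0.00690 for *Kif23*, and upper-quartile factors 0.00758 for *Gins2*. Without the hepatocyte-high libraries they were 0.0526 (*Brca1*), 0.0603 (*Bub1b*), 0.15 (*Gins2*), 0.0222 (*Mcm3*) and 0.0647 (*Pcna*). Leaving out each library gave -0.19 to 0.20 (*Gins2*), -0.0509 to 0.0307 (*Mcm3*), -0.0650 to 0.0122 (*Cenpf*), -0.12 to 0.0757 (*Cenpa*), -0.0151 to 0.0748 (*Kif23*), -0.15 to 0.0299 (*Brca1*), -0.0781 to 0.00063 (*Bub1b*) and -0.0864 to 0.0030 (*Top2a*). The cause was not tested for any of these.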
